A study of Mus musculus with 27 samples.

Results

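The step from 0.1 to 0.3 µg/kg was examined in the ileal epithelium of male C57BL/6 mice given the dioxin TCDD. The 3 mice given 0.3 µg/kg were compared with the 9 mice given 0.01, 0.03 or 0.1 µg/kg, 3 per dose, so 12 of the 27 mice of the series were compared directly. The members were chosen by the dose on the sample label and by no measured value. All 27 mice received sesame oil by gavage every 4 days for 28 days, alone in 3 vehicle mice or carrying 1 of 8 TCDD doses up to 30 µg/kg in the others. They were collected at postnatal day 56, and epithelium was scraped from the distal ileum for RNA-Seq. In the study's methods the mice were co-housed and fasted before collection, and the cage and hour of collection of each mouse are not given in the sources used here, so an effect of either cannot be told apart from dose. The question was whether expression first moves below 1 µg/kg.

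TCDD is a long-lived ligand of the aryl hydrocarbon receptor (AhR), a transcription factor that pairs with ARNT and binds DNA at sites built around the core GCGTG. Cyp1a1, which encodes a monooxygenase of xenobiotic metabolism, is the best known AhR target in the gut epithelium, and Ahrr and Tiparp encode proteins that restrain the receptor. The intestinal epithelium also runs a circadian clock. In that clock ARNTL and CLOCK (or NPAS2) activate genes through E-boxes (CACGTG), PER and CRY proteins repress ARNTL and CLOCK, the nuclear receptors NR1D1 and NR1D2 repress Arntl, Npas2 and Nfil3, and the factors DBP, TEF and HLF act on D-boxes, where NFIL3 opposes them. A tissue taken at another hour can therefore have other levels of these messages.

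The sequences before the RefSeq starts (GRCm38.p6) of Cyp1a1 and of 3 clock genes, chosen after their values were seen, are given below. The sequences run 5′ to 3′ on the gene's strand, with GCGTG and CACGTG in either orientation in capitals. They are chr9:57697363-57697612 (plus strand), chr11:98775378-98775627 (minus), chr14:18239107-18239356 (minus) and chr15:81802423-81802672 (plus).
Cyp1a1: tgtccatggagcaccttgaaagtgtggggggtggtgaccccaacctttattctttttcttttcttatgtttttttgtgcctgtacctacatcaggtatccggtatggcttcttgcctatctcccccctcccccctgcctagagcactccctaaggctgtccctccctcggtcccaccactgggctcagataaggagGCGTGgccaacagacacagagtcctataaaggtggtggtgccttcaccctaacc
Nr1d1: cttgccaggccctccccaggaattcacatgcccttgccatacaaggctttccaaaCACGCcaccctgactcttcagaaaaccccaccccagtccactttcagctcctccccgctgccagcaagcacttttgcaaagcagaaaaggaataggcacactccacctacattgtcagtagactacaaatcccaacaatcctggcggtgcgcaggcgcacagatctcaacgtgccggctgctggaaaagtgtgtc
Nr1d2: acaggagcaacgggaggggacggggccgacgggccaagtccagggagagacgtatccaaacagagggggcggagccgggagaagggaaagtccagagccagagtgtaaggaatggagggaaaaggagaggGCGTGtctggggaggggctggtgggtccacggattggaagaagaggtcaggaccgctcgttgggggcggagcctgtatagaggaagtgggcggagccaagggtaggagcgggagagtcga
Tef: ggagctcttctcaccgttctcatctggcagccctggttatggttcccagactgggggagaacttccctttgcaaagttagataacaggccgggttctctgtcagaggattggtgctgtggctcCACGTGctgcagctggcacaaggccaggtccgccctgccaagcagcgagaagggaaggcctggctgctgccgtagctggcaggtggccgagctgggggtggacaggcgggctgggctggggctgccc
The Cyp1a1 window starts from the RefSeq transcript, 9685 bases inside the GENCODE gene interval. The RefSeq starts of Tef and Nr1d2 lie 252 and 21 bases inside the GENCODE intervals of those genes. The whole Tef window is therefore also inside its gene interval. GCGTG stood once in the windows of Cyp1a1, Nr1d1 and Nr1d2, and CACGTG once in that of Tef. Both strands were searched in 250 bases, and a match is a description of letters only. Of 32851 RefSeq windows of that length, 28.2% held GCGTG, 6.02% held CACGTG and 0.819% held the D-box TTATGTAA. RefSeq windows were matched for 8 of 11 AhR target genes, of which 4 held GCGTG, and for 16 of 19 clock genes, of which 12 held GCGTG, 5 held CACGTG and 1 held TTATGTAA.

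Counts on genes summed to 12260382 to 14977402 per lower-dose mouse and to 15464837 to 16715357 per mouse at 0.3 µg/kg, so the groups did not overlap in depth, and the part of depth in the results was not tested. Levels are given as CPM, counts scaled by library size and TMM factors to a common total. Ileal identity was clear, with Fabp6, the ileal bile acid binding protein, at 1267 to 2218 CPM in the 12 mice. Of 8 colon markers, Hoxa13, Hoxb13, Hoxd12 and Aqp8 had no count in the 12 mice, 3 more had at most 26, and 1 was well measured in every mouse. No pair of mice of the same dose agreed within sampling noise. One library stood apart from its group. Mouse 14, given 0.01 µg/kg, had clock gene levels like those of mice given 1 µg/kg or more, and the clock gene results, together with counts and medians that moved without it, are given with and without it.

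No gene was called between 0.3 µg/kg and the lower doses. With the 3 lower doses weighted equally, edgeR's quasi-likelihood test found 0 of 16741 genes (0%) at both an adjusted p up to 0.05 and a 1.5-fold difference, the rule for a call. The smallest adjusted p was 0.299. By unadjusted p of at most 0.05, 692 genes (4.13%) differed, 472 higher (2.82%) and 220 lower (1.31%) at 0.3 µg/kg. DESeq2 also called 0 genes, with 628 at an unadjusted p of at most 0.05. In 109 genes (0.651%) all 3 mice at 0.3 µg/kg lay above all 9 lower-dose mice, and in 88 genes (0.526%) all 3 lay below. The median log2 fold change over all genes was 0.01, and its absolute size had a median of 0.10. The 95% interval of the fold change lay inside 1.5-fold in either direction for 10690 genes (63.9%) and inside 2-fold for 14177 genes (84.7%). For the remaining genes these data do not limit the difference to that size.

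AhR target genes did not differ detectably between 0.3 µg/kg and the lower doses, and Cyp1a1 was near the floor of detection. Cyp1a1 (ENSMUSG00000032315, GRCm38 chr9:57687928-57703824) had 4, 0 and 14 counts in mice 33, 35 and 36, given 0.3 µg/kg, and 0 to 7 counts in the lower-dose mice. As CPM these were 0.230, 0 and 0.887 against 0 to 0.581, with a lower-dose median of 0.0781. The groups overlapped, and only mouse 36 lay above every lower-dose mouse. The log2 fold change was 0.97 ± 1.14 (SE, n = 3 and 9 mice; 95% interval -1.38 to 3.32; edgeR, adjusted p = 0.998), and without mouse 36 it was -0.58. A two-sided exact permutation test of log2 CPM over the 220 splits of the 12 mice gave p = 0.627, the smallest possible being 0.00909. At 1 µg/kg the 3 mice had 3.32, 4.68 and 6.30 CPM, above every mouse at lower doses, and the log2 fold change over the same 9 mice was 4.63 (edgeR, adjusted p = 0.00123). At 30 µg/kg the level was 1741 ± 621 CPM (SD, n = 3).

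Among the other AhR targets, 8 genes passed the filter on low counts. Cyp1a2 had no count in the 12 mice and Aldh3a1 at most 4, so neither was tested. Of the 9 tested members, 6 were higher and 3 lower at 0.3 µg/kg, 0 were called, 0 had an unadjusted p of at most 0.05, and the median log2 fold change was 0.03, against 0.01 over all genes. For 6 of the 9 the interval lay inside 1.5-fold. Ahrr, the AhR repressor, had 3.79, 3.30 and 3.48 CPM at 0.3 µg/kg against 2.90 to 3.83 (median 3.38) at the lower doses, a log2 fold change of 0.03 ± 0.14 (SE). Vehicle mice had 2.27 to 2.63 CPM of Ahrr, below every mouse at these doses. Tiparp, which encodes a mono-ADP-ribosyltransferase, was at -0.11 ± 0.13 and Nqo1, a quinone reductase, at 0.01 ± 0.16. The glucuronosyltransferase genes Ugt1a6a, Ugt1a6b and Ugt1a7c stood at 0.24 ± 0.14, 0.18 ± 0.21 and 0.16 ± 0.10. Cyp1b1, another monooxygenase, was at -0.06 ± 0.30 and Xdh, xanthine dehydrogenase, at -0.16 ± 0.16. The receptor's own complex (6 genes, among them Ahr, Arnt, Hsp90ab1 and Ptges3) had a median of -0.07, with 0 of 6 called. Against vehicle instead, Ahrr at 0.3 µg/kg was at 0.51 (edgeR, unadjusted p = 0.00818, adjusted p = 0.475). In that comparison Ugt1a7c was at 0.32 and Tiparp at -0.32 (edgeR, unadjusted p = 0.0172 and 0.0471), and none was called.

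**Figure D1:**
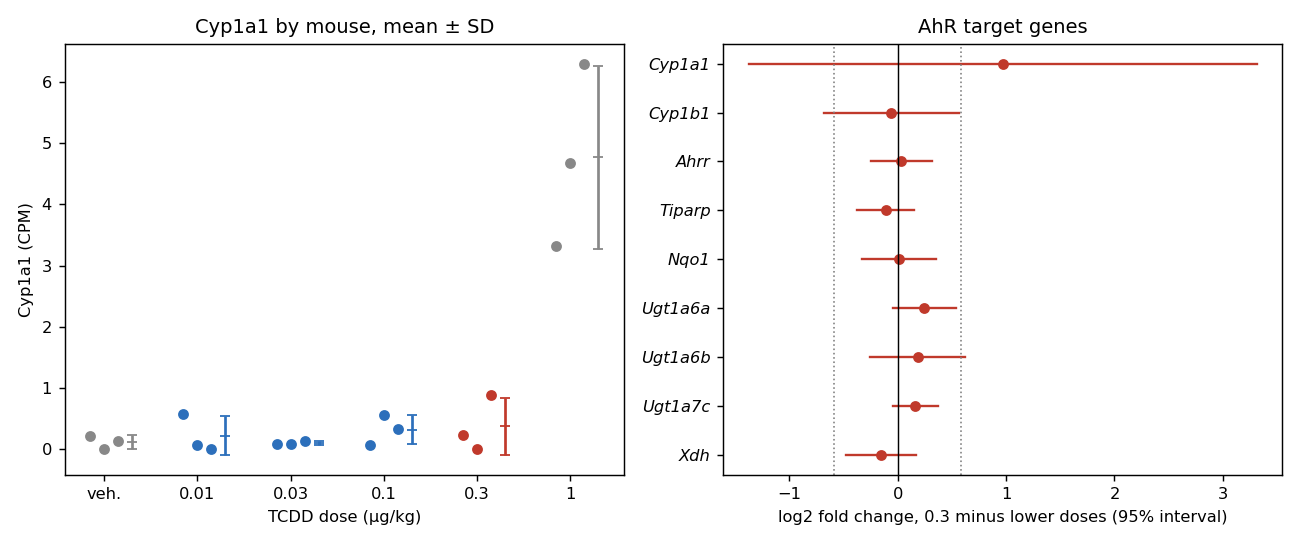
Left, Cyp1a1 (CPM) in each mouse given vehicle or up to 1 µg/kg TCDD, with the mean and SD of the 3 mice beside the points (red, 0.3 µg/kg; blue, lower doses; grey, other groups). Right, log2 fold change at 0.3 µg/kg over the lower doses (points) with 95% intervals (lines) for the 9 tested AhR target genes, with dotted lines at 1.5-fold; Cyp1a1 at 0.3 µg/kg overlapped the lower doses, and every interval spanned 0.

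Several clock genes separated the 0.3 µg/kg mice from 8 of the 9 lower-dose mice, with mouse 14 on the far side. Nr1d1 (ENSMUSG00000020889, chr11:98767932-98775333), the gene of the repressor REV-ERBα, had 44.8, 88.2 and 62.7 CPM at 0.3 µg/kg. In the lower-dose mice it had 8.64 to 149 CPM with a median of 20.9, and 149 CPM was mouse 14. The other 8 mice reached at most 28.7 CPM, below every mouse at 0.3 µg/kg. With all 12 mice the level was 2.18-fold that of the lower doses (log2 fold change 1.12 ± 0.44, SE; unadjusted p = 0.0184, adjusted p = 0.998; edgeR). Without mouse 14 it was 3.47-fold (1.80 ± 0.26, adjusted p = 0.00623) and Nr1d1 was called.

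Nr1d2 (ENSMUSG00000021775, chr14:18204054-18239127), the gene of the related repressor REV-ERBβ, followed the same order. It had 30.45, 50.8 and 40.4 CPM at 0.3 µg/kg, 97.2 CPM in mouse 14, and 14.45 to 26.2 CPM in the other 8 lower-dose mice. The groups were apart except for mouse 14. The log2 fold change was 0.63 ± 0.34 with all 12 mice (edgeR, adjusted p = 0.998) and 1.11 ± 0.16 without mouse 14 (adjusted p = 0.00623), a 2.16-fold difference that was called. These 2 genes were the only calls among 17073 tested without mouse 14 (0.0117%). Since mouse 14 was left out for its clock gene levels, the calls made without it rest on that choice.

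Of the D-box factors, Tef (ENSMUSG00000022389, chr15:81802421-81826863) had 20.7, 37.9 and 26.0 CPM at 0.3 µg/kg, 80.2 CPM in mouse 14 and 11.5 to 18.4 CPM in the other 8. Its log2 fold change was 0.55 ± 0.36 with all mice and 1.057 ± 0.20 without mouse 14, where it was not called (edgeR, adjusted p = 0.0897), and 0.27 without mouse 35. Dbp had 1.15, 4.94 and 2.34 CPM against 27.6 CPM in mouse 14 and 0.382 to 1.67 CPM in the other 8, so mouse 33 lay within their range. Its log2 fold change was 0.34 ± 0.76 with all mice and 1.43 ± 0.49 without mouse 14, and -0.35 without mouse 35. Hlf, at 0.804, 0.634 and 1.204 CPM, was at 0.54 ± 0.47, and at 0.70 without mouse 14.

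The repressors of the PER and CRY families were mixed. Per3 had 8.16, 11.85 and 10.6 CPM at 0.3 µg/kg against 33.1 CPM in mouse 14 and 4.765 to 7.31 CPM in the other 8. Its log2 fold change was 0.29 ± 0.34 with all mice and 0.69 ± 0.22 without mouse 14 (unadjusted p = 0.00442, adjusted p = 0.969; edgeR). Per1 and Per2 were at 0.24 ± 0.24 and 0.19 ± 0.21, with overlapping groups also when mouse 14 was left out, and 0.47 and 0.35 without it. Of the members lower at 0.3 µg/kg, Cry1 differed most, with 27.1, 19.1 and 27.4 CPM at 0.3 µg/kg against 15.7 CPM in mouse 14 and 30.7 to 46.0 CPM in the other 8. Its log2 fold change was -0.51 ± 0.23 with all mice (edgeR, unadjusted p = 0.0379) and -0.62 without mouse 14, called in neither. Cry2, Ciart, Bhlhe40 and Bhlhe41 were at -0.08, 0.21, -0.05 and -0.06, with standard errors from 0.18 to 0.64. Without mouse 14 they were at -0.07, 0.72, 0.02 and -0.04.

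Arntl, Npas2, Clock, Rora and the D-box repressor Nfil3 were lower at 0.3 µg/kg, with 0 at an unadjusted p of at most 0.05 with all mice (edgeR). Arntl, which encodes BMAL1, had 55.4, 38.5 and 41.8 CPM at 0.3 µg/kg, 15.7 CPM in mouse 14 and 55.2 to 64.7 CPM in the other 8 lower-dose mice. Nfil3 had 24.3, 14.2 and 15.01 CPM against 4.47 CPM in mouse 14 and 21.4 to 34.1 CPM in the other 8. For both genes mice 35 and 36 lay below the 8 and mouse 33 within their range. Their log2 fold changes were -0.24 ± 0.26 and -0.48 ± 0.34 with all mice and -0.38 and -0.65 without mouse 14, none of them called. Npas2, Clock and Rora were at -0.17, -0.09 and -0.06, and at -0.29, -0.10 and -0.08 without mouse 14. With the clock score (described below) as a covariate Arntl and Npas2 were at 0.12 and 0.0577. Both genes are part of that score, so these values cannot show whether their difference depends on it.

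Over the 19 tested clock genes, 1 was higher and 1 lower at an unadjusted p of at most 0.05 with all 12 mice (edgeR). At that p 2.82% of all genes were higher and 1.31% lower. Without mouse 14, 6 clock genes were higher (2.98% of all genes) and 3 lower (1.56% of all genes). Mouse 14 was left out for its levels of these same genes. Counts without it, also those outside the other 8 mice below, rest on that choice. They cannot be weighed against the shares of all genes. None of the 19 had its 3 mice at 0.3 µg/kg outside all 9 lower-dose mice. Outside the other 8 mice lay 4 above (Nr1d1, Nr1d2, Tef and Per3; 0.974% of all genes) and 3 below (Cry1 and Npas2 among them; 0.866%). The clock score (the mean scaled level of repressor and D-box factor genes minus that of Arntl, Clock, Npas2 and Nfil3) was -1.08, -0.75 and -0.54 in mice 33, 35 and 36. It was 1.22 in mouse 14, from -2.01 to -1.12 in the other 8 lower-dose mice, and 0.16 to 1.498 at 1 µg/kg. The mice at 0.3 µg/kg thus lay between these 8 mice and those at 1 µg/kg, and mouse 33 was close to the 8.

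The levels on either side of 0.3 µg/kg show the same order in Nr1d1, Nr1d2 and Tef, chosen after their values were seen. Vehicle mice had 2.77 to 11.4 CPM of Nr1d1, 12.3 to 18.0 of Nr1d2 and 7.61 to 12.2 of Tef. Mice at 1 µg/kg had 129 to 224, 81.01 to 125 and 72.7 to 116 CPM. For each of the 3 genes every mouse at 0.3 µg/kg lay above every vehicle mouse and below every mouse at 1 µg/kg. Not every clock gene had that order. Per1 had 22.9 to 38.45 CPM at 0.3 µg/kg and 19.1 to 37.0 CPM at 1 µg/kg. Cry1 had 19.1 to 27.4 CPM at 0.3 µg/kg and 13.7 to 30.3 CPM at 1 µg/kg. At 1 µg/kg, 11 of the 19 clock genes were called against the same lower-dose mice, where 0.293% of all genes were.

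**Figure D2:**
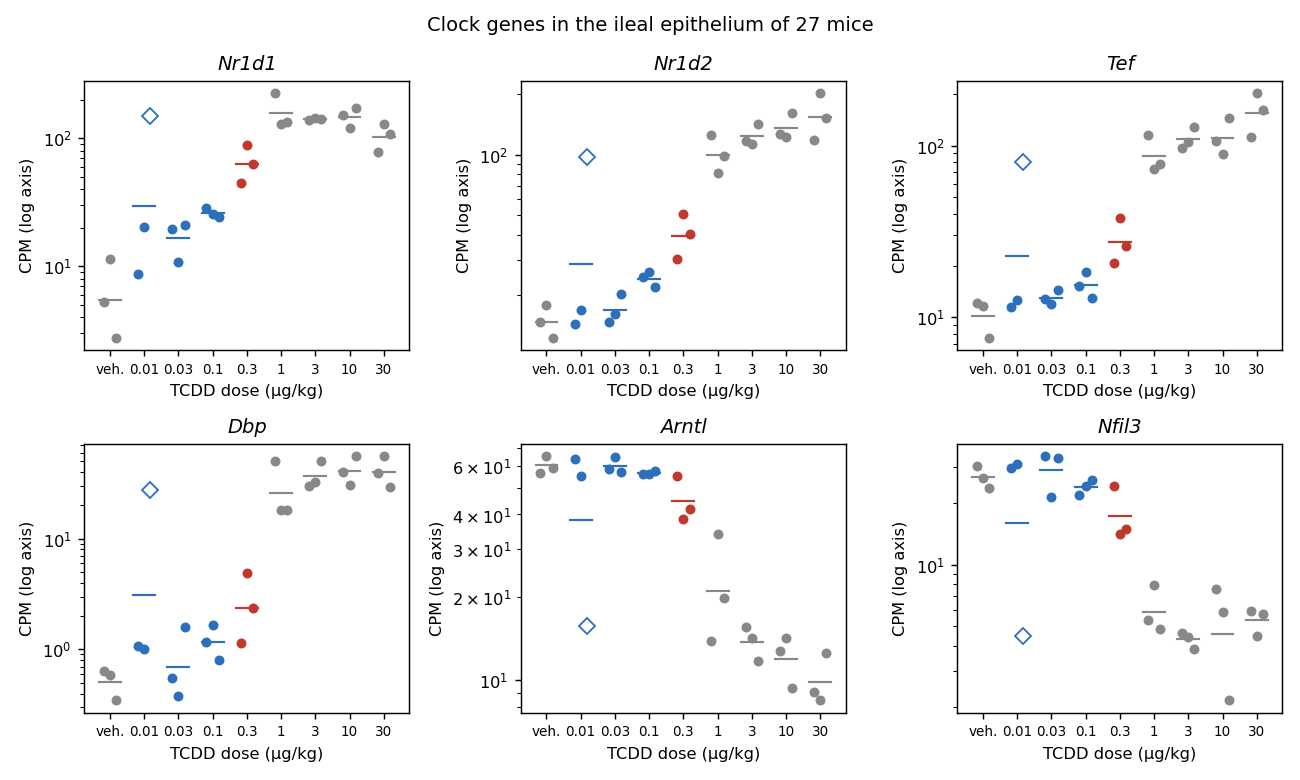
CPM (log axis) of 6 clock genes in each of the 27 mice by TCDD dose (µg/kg), with a line at the geometric mean of the 3 mice (red, 0.3 µg/kg; blue, lower doses; grey, other groups; open diamond, mouse 14). The red points of Nr1d1, Nr1d2 and Tef lie between the blue points other than the diamond and the mice at 1 µg/kg, and Arntl and Nfil3 run the other way.

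Genes called at higher doses in other mice mostly had the same sign at 0.3 µg/kg, by small amounts. Calls at 1, 3, 10 and 30 µg/kg against vehicle use none of the 12 mice compared here, although the estimate of spread is shared, and these lists were taken up after the data had been seen. At 1 µg/kg, 67 genes were called higher (0.4%) and 32 lower (0.191%) than in vehicle. Of the 67, 59 were higher at 0.3 µg/kg than at the lower doses, with a median log2 fold change of 0.23. Of the 32, 30 were lower, with a median of -0.33. Over all genes 51.8% were higher and the median was 0.01. In these sets 14 and 4 genes reached an unadjusted p of at most 0.05 (edgeR) in that direction. Of all genes, 2.82% were higher and 1.31% lower at that p. All 3 mice lay outside the 9 lower-dose mice in that direction for 1 gene of each set. Of all genes, 0.651% lay above and 0.526% below the 9 mice.

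The lists from higher doses were larger and their medians smaller. The lists share genes, Nr1d1 among them, and the same vehicle mice, so they are not separate results. At 3 µg/kg, 108 genes were called higher (0.645% of all genes) and 77 lower (0.46%). Of these, 97 (89.8%) and 71 (92.2%) had that direction at 0.3 µg/kg, with medians of 0.19 and -0.17. At 10 µg/kg, 294 genes were called higher (1.76% of all genes) and 129 lower (0.771%). Of these, 244 (83%) and 104 (80.6%) had that direction, with medians of 0.18 and -0.14. At 30 µg/kg, 908 genes were called higher (5.42% of all genes) and 666 lower (3.98%). Of these, 634 (69.8%) and 510 (76.6%) had that direction, with medians of 0.10 and -0.11. Without the clock genes of the lists the medians for 1 µg/kg were 0.22 and -0.33, and without mouse 14 they were 0.27 and -0.37. Leaving out mouse 35 instead brought the medians of genes called higher at 1, 3 and 30 µg/kg to 0.12, 0.0722 and 0.0529, and leaving out mouse 36 brought that at 10 µg/kg to 0.12. With the clock score of each mouse as a covariate the medians for 1 µg/kg were 0.14 and -0.10. Clock genes of these sets enter the score, which was itself higher at the higher doses, so this fit cannot tell clock from dose.

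**Figure D3:**
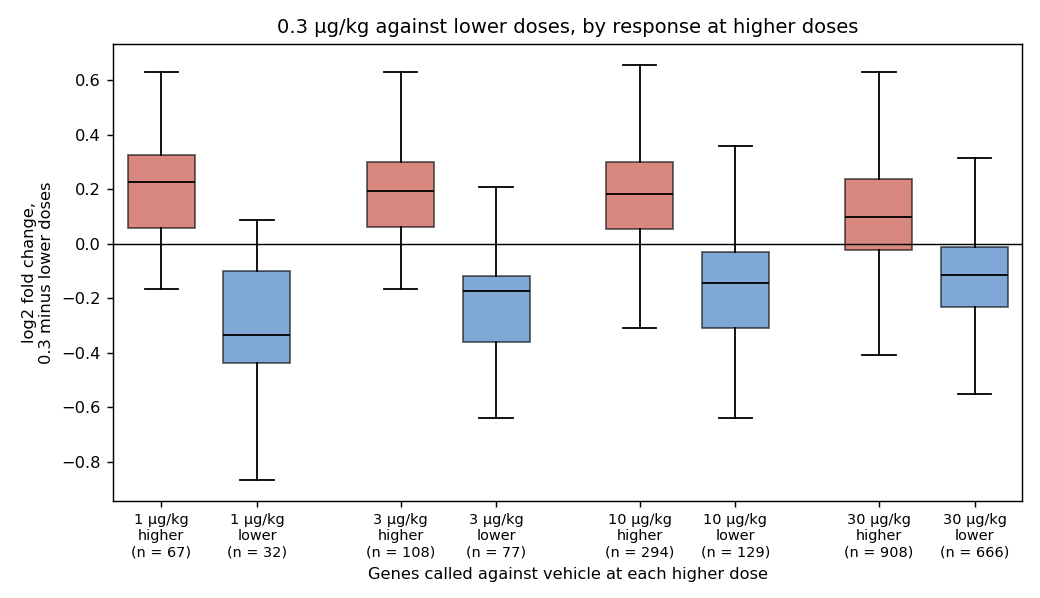
Log2 fold change at 0.3 µg/kg over the lower doses for genes called higher (red) or lower (blue) than vehicle at 1, 3, 10 or 30 µg/kg (boxes, quartiles; line, median; whiskers, up to 1.5 times the quartile range; outliers not drawn). Medians run from 0.23 for the 67 genes higher at 1 µg/kg and -0.33 for the 32 lower to 0.10 and -0.11 at 30 µg/kg.

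Set beside the same 9 lower-dose mice, 1 µg/kg had 49 called genes (0.293%), 38 higher and 11 lower. The 2 comparisons share those mice, so their values are given only side by side. The 38 genes had a median log2 fold change of 1.065 at 1 µg/kg and 0.27 at 0.3 µg/kg, and the 11 genes had -0.99 and -0.24. At 0.3 µg/kg 5 of the 49 had an unadjusted p of at most 0.05 (edgeR), among them Nr1d1, Krt23, Cpm and Rasd2, the last 3 being named here after their values were seen. Of all genes, 4.13% had such a p in either direction, but with shared lower-dose mice the 5 cannot be weighed against that share. Rasd2, a small GTPase gene, had 24.9, 25.7 and 21.6 CPM against 13.7 to 23.9 CPM, with 0.33 ± 0.13. Cpm, which encodes carboxypeptidase M, had 48.9, 39.7 and 41.0 CPM against 29.1 to 39.2 CPM, above all 9 mice, with 0.32 ± 0.13. Krt23, a keratin gene, was at 0.43 ± 0.19.

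The genes with the smallest p were not called and had diverse identities. Among those higher at 0.3 µg/kg, Ighv1-11 and Ighv14-2 are variable segments of the immunoglobulin heavy chain, which differ between animals with their B cell clones. Ighv1-11 had 89, 5 and 52 counts in mice 33, 35 and 36 and 0 to 9 in the lower-dose mice, so mouse 35 lay within their range, with a log2 fold change of 4.00 ± 0.71 (edgeR, adjusted p = 0.299). Ighv14-2 had 32.8, 26.9 and 6.02 CPM against 1.495 to 26.2 CPM, with 2.14 ± 0.49. Across the 146 tested variable segments of the 3 immunoglobulin loci, a group formed after the values were seen, 9 were higher and 10 lower at an unadjusted p of at most 0.05, and the median was -0.34. At that p 2.82% of all genes were higher and 1.31% lower.

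Pla2g4c, which encodes a cytosolic phospholipase A2, rested on mouse 36. It had 10.3, 4.12 and 192 CPM at 0.3 µg/kg and 8.54 to 48.1 CPM at the lower doses, with a log2 fold change of 2.37 ± 0.57 that was -0.88 without mouse 36. Leaving out mouse 35 brought Pla2g4c and Ighv1-11 past the threshold (edgeR, adjusted p = 0.0424 and 0.0179), the only calls in any of the 12 fits with 1 mouse left out besides those without mouse 14. By contrast 0610009B22Rik and Ovca2 were alike in their 3 mice. The first had 7.30, 8.30 and 8.045 CPM against 5.15 to 6.49 CPM (log2 fold change 0.45 ± 0.11), and Ovca2, which encodes a serine hydrolase, had 5.86, 6.08 and 5.51 CPM against 3.405 to 4.97 CPM (0.50 ± 0.12). Both lay above all 9 lower-dose mice, though vehicle mice reached 7.13 and 5.47 CPM.

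Among the genes lower at 0.3 µg/kg, S100a11, which encodes a calcium-binding protein, was the one well above the low-count limit. It had 15.4, 13.8 and 13.4 CPM at 0.3 µg/kg against 17.2 to 22.7 CPM (median 21.1) at the lower doses, with all 3 mice below the 9. Its log2 fold change was -0.50 ± 0.13 (edgeR, unadjusted p = 0.000891, adjusted p = 0.998). Tnip3, which encodes an inhibitor of NF-κB signalling, had 1, 0 and 3 counts against 4 to 10, and the unclassified transcript Gm42969 had 2, 1 and 1 counts against 4 to 12. Hsf3, a heat shock factor gene, was at -2.07 ± 0.56 and the transcript Gm36948 at -1.22 ± 0.34, the latter with overlapping groups, and neither exceeded 1.18 CPM in any mouse compared.

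The ileal genes of bile acid handling that the study discusses were not called. Fgf15, the enterocyte hormone that represses bile acid synthesis in the liver, had 42.8, 66.2 and 94.0 CPM at 0.3 µg/kg and 28.4 to 55.6 CPM (median 43.1) at the lower doses. Mice 35 and 36 lay above the 9 mice and mouse 33 within their range. The log2 fold change was 0.66 ± 0.42 (95% interval -0.22 to 1.53), and without mouse 36 it was 0.34. Slc10a2, the apical bile acid transporter, had 305, 189 and 330 CPM against 266 to 434 CPM (-0.29 ± 0.20). Slc51a and Slc51b, the subunits of the basolateral transporter, were at 0.15 ± 0.08 and 0.01 ± 0.11, whose intervals lay inside 1.5-fold. Without mouse 14 Slc51a was at 0.19 (edgeR, unadjusted p = 0.0269, adjusted p = 0.997). Fabp6 was at -0.10 ± 0.21 and Cyp3a44, which shares sequence with other Cyp3a genes, at -0.75 ± 0.49.

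The other pathway lists held 0 called members at 0.3 µg/kg. Genes of the mitochondrial genome, which encode subunits of the respiratory chain, were all on one side, with 10 of 10 higher, a median of 0.20 and 4 at an unadjusted p of at most 0.05 (edgeR), of which 2 without mouse 14 (mt-Co1 and mt-Atp6). At that p 2.82% of all genes were higher with all mice. mt-Co1 had 7895, 9007 and 8970 CPM against 6705 to 8409 CPM (0.22 ± 0.10), and mt-Nd4 and mt-Atp6 were at 0.20 ± 0.10 and 0.69 ± 0.29, the last being 0.45 without mouse 35. mt-Atp6 had only 6 to 23 counts per mouse. Of 15 immediate early genes, which respond within minutes to stimuli, 14 were lower with a median of -0.19. Atf3, a stress-induced factor, had 14.2, 23.8 and 21.2 CPM against 25.3 to 38.6 CPM (-0.63 ± 0.28), all 3 below the 9, and Egr1 was at -0.52 ± 0.24. Interferon-stimulated genes had a median of -0.32 with 16 of 18 lower and 0 at an unadjusted p of at most 0.05. Ifit2 was at -0.51 ± 0.25.

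Sterol synthesis genes had a median of -0.12 with 16 of 20 lower, and 18 of their 20 intervals lay inside 1.5-fold. An unadjusted p of at most 0.05 was reached by 1 of the 20 (edgeR). Cell cycle genes were lower in 15 of 15 with a median of -0.16, and 0 had an unadjusted p of at most 0.05. PPARA targets had a median of 0.03, Acadl of fatty acid oxidation being at -0.25 ± 0.10. Unfolded protein response genes had a median of -0.11, with 2 of 16 below all 9 mice, where 0.526% of all genes were. Pdia4, a protein disulfide isomerase, was 1 of the 2 (-0.22 ± 0.08). In peptide and amino acid uptake the median was -0.02 and Slc7a8 was at 0.55 ± 0.26, which was 0.0165 without mouse 35. Heat shock chaperones (-0.19), NRF2 targets (-0.02), fat absorption (-0.03), sugar digestion and transport (-0.01), junction genes (0.01), MHC class II genes (-0.07), inducible antimicrobial genes (-0.23), glucocorticoid-responsive genes (0.14), fatty acid synthesis (-0.12) and P450 genes of families 2, 3 and 4 (0.10) had 0 members at an unadjusted p of at most 0.05. The glucocorticoid median was -0.05 without mouse 35 and -0.06 without mouse 36, and the P450 median was -0.21 without mouse 35. The fatty acid synthesis median ran from -0.20 to -0.0535 and the inducible antimicrobial median from -0.34 to -0.14 as each mouse was left out.

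**Figure D4:**
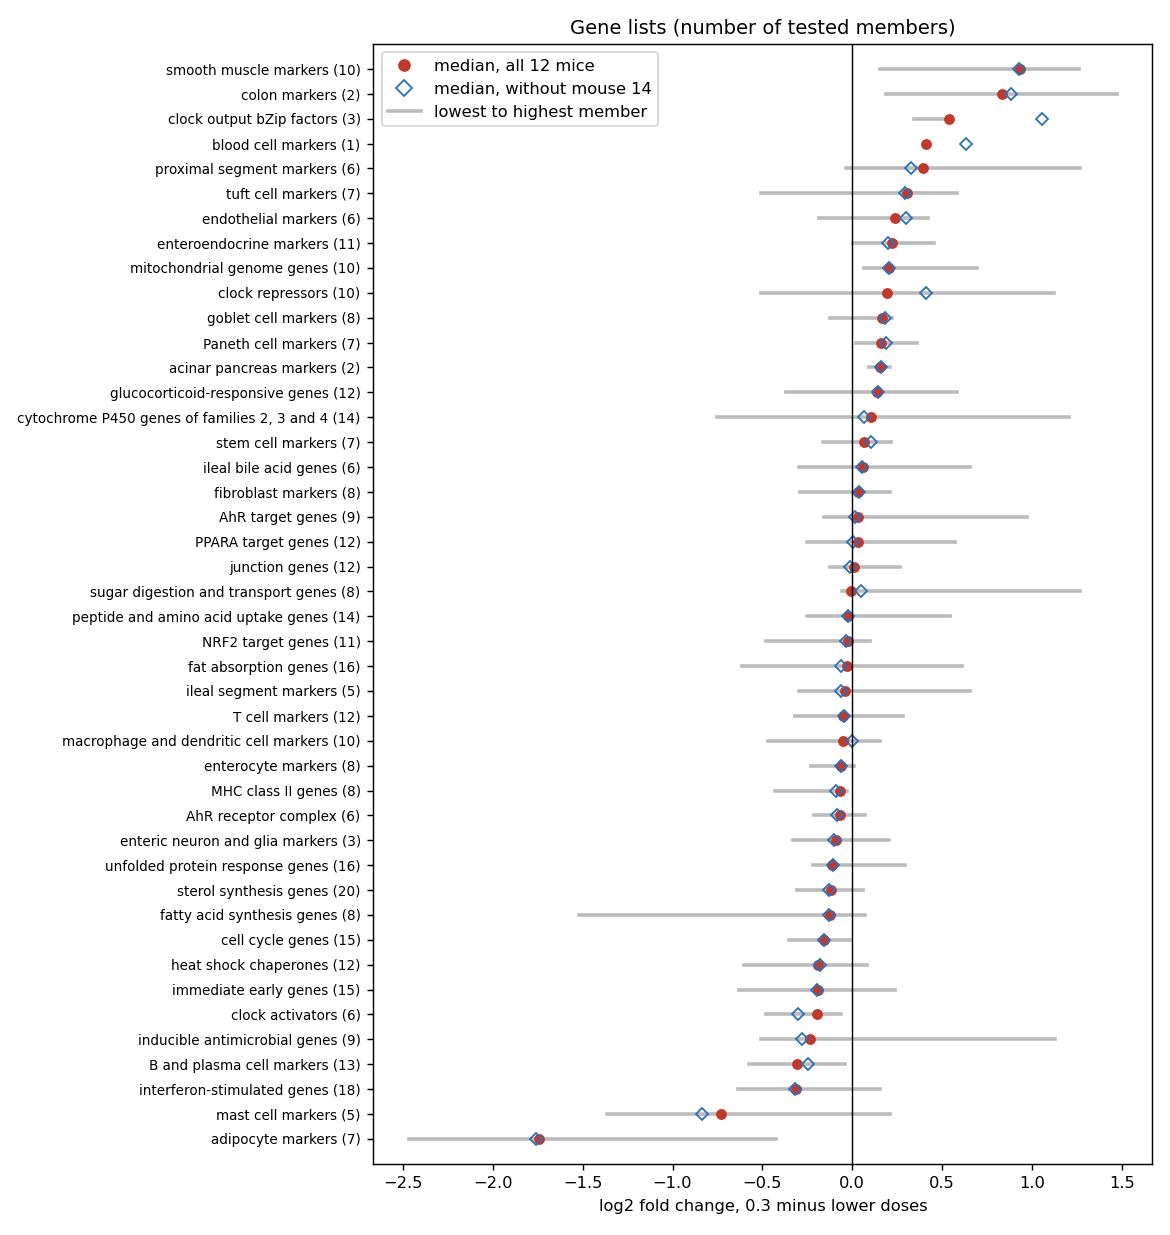
Log2 fold change at 0.3 µg/kg over the lower doses for 44 gene lists, with the number of tested members in brackets (red, median over all 12 mice; blue diamond, median without mouse 14; grey bar, lowest to highest member). The median that moved most when mouse 14 was left out was that of the D-box factors (clock output bZip factors), from 0.54 to 1.057, and adipocyte and smooth muscle markers had the outermost medians.

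Markers of other cell types had 0 called members, and the share of other layers in a scraping and the level per cell cannot be told apart in bulk RNA. Smooth muscle markers were higher in 10 of 10 with a median of 0.93, and 1 had an unadjusted p of at most 0.05 (edgeR). Their summed level was 292, 534 and 550 CPM in mice 33, 35 and 36 against 265 to 490 CPM at the lower doses, so mouse 33 lay within that range. Lmod1, which encodes leiomodin of the contractile filaments, had 1.44, 5.26 and 4.94 CPM against 1.04 to 2.91 CPM (1.26 ± 0.51), and Myh11, smooth muscle myosin, was at 1.02 ± 0.60. The list's median ran from 0.57 to 1.32 as each mouse was left out. Adipocyte markers were lower in 7 of 7 with a median of -1.74. Their sum was 10.8, 18.8 and 12.7 CPM against 10.85 to 60.5 CPM, mouse 33 just below that range and the others within it, with Adipoq at -2.47 ± 1.59 and Lep at -2.28 ± 1.59.

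Markers of the proximal intestine had a median of 0.39 that was -0.39 without mouse 35. Their sum was 139, 660 and 399 CPM at 0.3 µg/kg, against 180 to 703 CPM at the lower doses, where mouse 26 (0.1 µg/kg) was highest. Mouse 33 thus lay below all 9 mice and the others within their range. Lct, the gene of lactase, had 2.59, 196 and 20.2 CPM and a log2 fold change of 1.27 ± 0.91, which was -1.42 without mouse 35. Ileal segment markers had a median of -0.04 and enterocyte markers of -0.06, each with 0 members at an unadjusted p of at most 0.05.

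Goblet cell markers were higher in 7 of 8 by small amounts, with a median of 0.16, 4 at an unadjusted p of at most 0.05 (edgeR) and 0 called. At that p 2.82% of all genes were higher. Zg16, Clca1 and Fcgbp, which encode proteins of the mucus layer, were at 0.21 ± 0.10, 0.22 ± 0.10 and 0.19 ± 0.09, and all 8 intervals lay inside 1.5-fold. The summed level was 28670, 25600 and 25840 CPM against 20230 to 26570 CPM, with mouse 33 above all 9. Without mouse 14, Zg16 was the 1 of the 8 with an unadjusted p of at most 0.05. Enteroendocrine markers were higher in 11 of 11 with a median of 0.22, Tph1 of serotonin synthesis at 0.45 ± 0.22, and mouse 17 (0.03 µg/kg) was low in them with a sum of 66.0 CPM against 159 to 197 CPM in the other 11 mice. Without mouse 17 the median was 0.0878. B and plasma cell markers were lower in 13 of 13 (median -0.31, 0 at an unadjusted p of at most 0.05). Mast cell markers had a median of -0.73, with Mcpt2 at -1.37 ± 0.78. Paneth cell (0.16), stem cell (0.06), tuft cell (0.30), T cell (-0.05), macrophage and dendritic cell (-0.05), fibroblast (0.03) and endothelial markers (0.24) had 0 members at an unadjusted p of at most 0.05. Enteric neuron and glia, acinar pancreas, blood cell and colon lists had 3, 2, 1 and 2 tested members, with medians of -0.09, 0.15, 0.41 and 0.83. Without mouse 36 the tuft cell median was -0.01 and the colon median 0.001. Without mouse 33 the Paneth cell median was 0.0028 and the stem cell median -0.0616. Without mouse 35 the B and plasma cell median was -0.16, and the mast cell median ran from -1.23 to -0.32 as each mouse was left out.

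**Figure D5:**
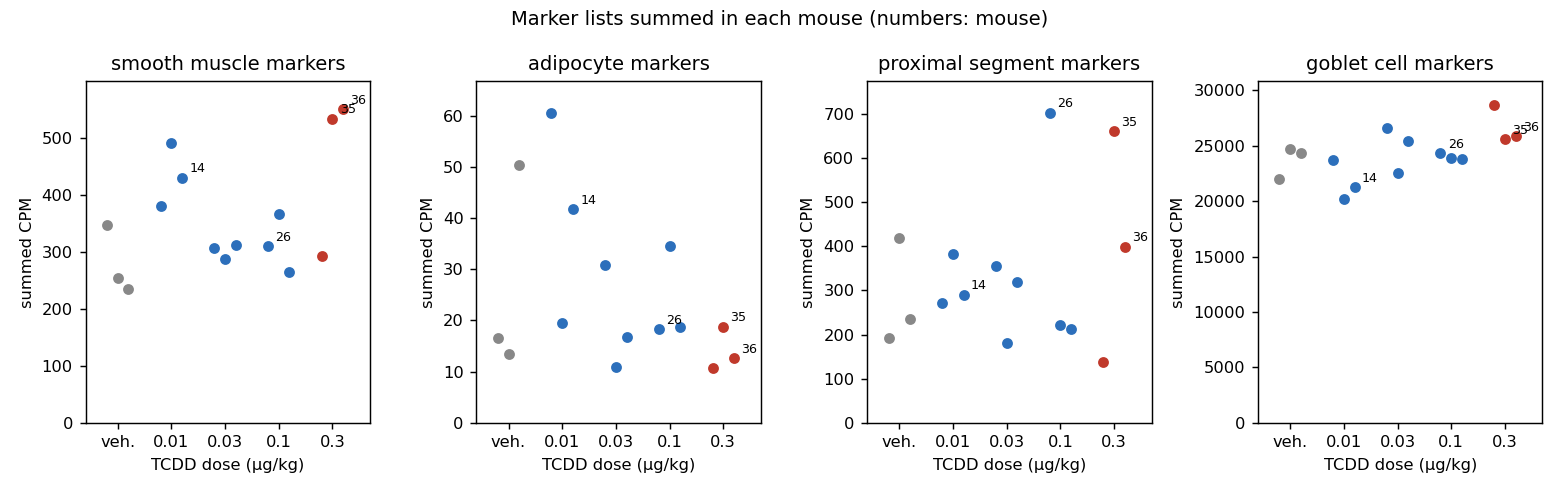
Summed CPM of 4 marker lists in each mouse given vehicle (grey), a lower TCDD dose (blue) or 0.3 µg/kg (red), with mice 14, 26, 35 and 36 numbered. Mice 35 and 36 were high in smooth muscle markers and mouse 35 in proximal segment markers, while mouse 33 was within the lower-dose range in the first and below it in the second.

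The doses that make up the comparison were also taken apart. Against 0.01, 0.03 and 0.1 µg/kg singly, edgeR called 0 genes each at 0.3 µg/kg, with 615, 595 and 704 genes at an unadjusted p of at most 0.05. DESeq2 called 1, 0 and 0. Among the 3 lower doses no gene differed by edgeR's test of any difference (0 of 16741 at an adjusted p of at most 0.05; 441 at an unadjusted p of at most 0.05; DESeq2, 2). Against vehicle, 0.3 µg/kg had 0 calls by edgeR, with 1247 genes at an unadjusted p of at most 0.05 and a smallest adjusted p of 0.0606. DESeq2 called 17 there, among them Nr1d1 (log2 fold change 3.33, adjusted p = 0.000695). The DESeq2 calls against vehicle also included Arhgef19 and Thra, higher at 0.3 µg/kg by 0.71 and 0.73 on the log2 scale, and Fut2 and Tat, at -1.61 and -1.71, named after their values were seen.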

How the data were processed

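RNA-Seq libraries of scraped ileal epithelium from 27 mice, 3 per dose, were grouped by the dose on the sample labels. Per the submitters' processing notes, the authors used FastQC 0.11.3, Trimmomatic 0.33, TopHat2 2.1.0, SAMtools 1.2.0 and HTSeq 0.6.1 with GRCm38, and deposited raw counts per Ensembl gene without normalization. Rows that name no gene were removed. Reads in no gene made up 44.5 to 49.5% of uniquely aligned reads, and reads with several alignments were not counted, which lowers genes with close copies. Gene names and positions came from GENCODE M21.

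Genes were filtered with filterByExpr, scaled by TMM and fitted by edgeR 4.0.16 (R 4.3.3) with 9 groups, all 27 mice sharing 1 estimate of the spread. The contrast was 0.3 µg/kg minus the mean of the 3 lower doses, with Benjamini-Hochberg adjustment over all genes. Adjusted p-values are edgeR's unless DESeq2 is named. SE is the log2 fold change divided by the square root of F. Log2 CPM used a prior count of 2. Cages of single mice are not given in the sources used here, so p-values treat mice as independent.

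The members, the 44 gene lists and the tests were chosen with earlier results of these data known. Named genes were all tested AhR target and clock genes, the 5 uncalled genes of smallest p in each direction, called list members, up to 3 members of each list with the smallest p, and 5 ileal genes that the study discusses, with exceptions stated. Some genes under that rule are not reported here. Scripts were tested on simulated data. Alternatives were DESeq2 1.42.0, other scalings, filters, samples in the fit, a clock covariate and left-out mice.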

Additional observations from a re-analysis of the deposited data

Results flagged for a closer look

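Over the 9 lower-dose mice, 65 genes were examined for a mouse far from the other 8 by Dixon's test on log2 of CPM plus 0.1, and 15 were found. Chance marks about 1 gene in 20. In 10 of the 15 the mouse was mouse 14, given 0.01 µg/kg, and all 10 are clock genes. In that mouse Nr1d1 stood at 149 CPM, Nr1d2 at 97.2, Tef at 80.2, Per3 at 33.1, Dbp at 27.6 and Ciart at 2.1, each the highest of the 9. Arntl at 15.7, Npas2 at 31.8, Cry1 at 15.7 and Nfil3 at 4.47 CPM were each the lowest. These genes belong to 1 clock, so the 10 are not independent.

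The other 5 genes each concerned 1 mouse. Pla2g4c stood at 48.1 CPM in mouse 17, against a median of 10.4 CPM, and Tph1 at 1.25 CPM in the same mouse. Cry2 was at 32.1 CPM in mouse 27. Ugt1a6a was at 2.98 CPM in mouse 26. Fabp6 was at 2218 CPM in mouse 9.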

How the results depend on the processing

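With 3 mice at 0.3 µg/kg, the median 95% interval reached 0.31 to either side on the log2 scale, and Cyp1a1 had too few counts for a narrow one. The 0 calls against the lower doses became 3 with no filter on low counts (Pla2g4c, Ighv14-2 and Ighv1-11) and ran from 0 to 2 as each mouse was left out, and every other alternative gave 0. The cause of these changes was not tested.

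Against vehicle, the 0 calls became 1 with upper quartile scaling, library size only, the robust fit or the clock covariate, 3 with only the mice compared, 17 with DESeq2 and 31 with no filter, and ran from 0 to 1 with a mouse left out. Against 0.01 µg/kg they became 4 with no filter, 2 with only the mice compared and 1 with DESeq2. Against 0.03 and 0.1 µg/kg each became 1 with no filter. Among the lower doses they became 6 with no filter and 2 with DESeq2. The 49 calls at 1 µg/kg became 92 with no filter, 0 with the clock covariate, 11 with only the mice compared, 93 with no fold minimum and 88 with DESeq2. They ran from 25 (without mouse 43) to 89 (without mouse 14) with a mouse left out. The clock score was 0.16 to 1.498 at 1 µg/kg and -2.01 to -1.12 in the lower-dose mice other than mouse 14. Of the 49 genes, 11 are clock genes. The score thus differed with dose and was built partly from called genes, so its 0 calls cannot tell clock from dose.

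Of 69 genes, 51 kept their direction under every alternative run. With a mouse left out, log2 fold changes ran from -0.58 to 1.71 for Cyp1a1, -0.34 to 0.17 for Cyp1b1, -0.0324 to 0.0715 for Ahrr, -0.0369 to 0.0343 for Nqo1, -0.0187 to 0.31 for Ugt1a6b, -0.0065 to 0.25 for Ugt1a7c, -0.24 to 0.0222 for Cry2, -0.23 to 0.72 for Ciart, -0.11 to 0.0209 for Bhlhe40, -0.23 to 0.19 for Bhlhe41, -0.13 to 0.0187 for Rora, -0.35 to 1.43 for Dbp, -0.88 to 2.92 for Pla2g4c, -0.0471 to 0.0442 for Slc51b, -1.42 to 2.09 for Lct and -0.22 to 0.0467 for Fabp6. With the clock covariate Nqo1 was at -0.034, Ciart at -0.0418, Arntl at 0.12 and Npas2 at 0.0577. Ciart, Arntl and Npas2 are themselves part of the score, so their values there decide nothing. With the 9 lower-dose mice as 1 group Dbp was at -0.54. With vehicle added to the lower doses Cyp1b1 was at 0.0488, Nqo1 at -0.0278, Cry2 at 0.0494 and Slc51b at -0.0338. The medians of genes called at higher doses were examined after seeing the data. No paired analysis was possible because replicates carry only mouse numbers, which no 2 groups share.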
